A study of Cucumis melo with 62 samples.

Results

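Among 29980 melon genes measured in fruit from different fields, 100 genes had their highest values at North Carolina in 2019 by the largest margin over every other environment. They were chosen from the measured values themselves. For each gene the group means of the cultivars F39 and TTDV were averaged in each of 6 environments, which were Uvalde in 2018 and, in 2019, Uvalde, North Carolina, Georgia, California and Arizona. The highest environment was North Carolina for 4099 of the 29980 genes, against 7348 for Uvalde 2019, 7203 for Uvalde 2018, 3555 for Georgia, 2615 for Arizona and 2238 for California. Of the 4099, the 100 with the largest difference between the highest and the second-highest environment were kept, and this difference is called the margin below. One library, TTDV North Carolina replicate 3, was not used in the choice and is described apart.

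Melon is the fleshy fruit of a cucurbit vine. As it matures, its flesh softens and gains sugars, and depending on the cultivar it also gains carotenoids and aroma volatiles, with a burst of the ripening hormone ethylene in climacteric types. Temperature, light, water supply and infection are each known to change transcript levels in plant tissue, and the labels record none of them for these fields.

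All libraries were made from fruit of Cucumis melo plants labelled wild type, picked at maturity about 45 days after flowering. F39 had 3 libraries in each of the 6 environments. TTDV had 3 as well, except at Georgia with 2, and also 3 from a field labelled Indiana in 2019, where the label adds TX in brackets and is called Indiana below. The other table held 3 libraries of each of 8 cultivars grown at Weslaco in Texas in 2019, namely CRUSER, HD150, HD252, Infinite Gold, OC164, PRIMO, TH-5 and TH-6. Nothing in the labels states that replicate libraries were taken from different plants, fruits or plots, so the p-values speak only of the spread among these libraries, which may be technical. No table paired the gene IDs with names, products or sequences, so the genes are given by ID, and the labelled tissue could not be checked against marker genes. In whole fruit, fewer cells of a type and less RNA per cell cannot be told apart.

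The deposited values are variance-stabilised and log2-like. Inverting that transform returned whole reads, and totals ran from 6251302 to 31333150 reads in the 38 libraries of F39 and TTDV and from 4041908 to 21290476 in the 24 Weslaco libraries. Values given as reads are these reads divided by the size factor of the library. They are not divided by gene length, so levels are compared between libraries of a gene and not between genes. A doubling moves the deposited value by 0.405 from 10 reads, 0.812 from 100 and 0.975 from 1000, so the scale compresses differences in genes with few reads.

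Several libraries stood apart or went against their labels. As a check of cultivar, 74 genes were taken whose F39 and TTDV libraries lay apart in the same direction, with means at least 2 units apart, at both California and Uvalde 2018. Of these, 1 is among the 100. At Uvalde 2019 the libraries labelled F39 had 73%, 77% and 59.5% of these genes on the TTDV side, while those labelled TTDV had 6.76%, 9.46% and 4.05%. The cultivar labels of Uvalde 2019 therefore run against the other environments. The choice of the 100 genes averages both cultivars there and is the same with the labels exchanged. TTDV North Carolina replicate 3 had 54.1% of the genes on the TTDV side, against 93.2% and 87.8% in replicates 1 and 2. Its values correlated best with F39 Uvalde 2019 replicate 3 (r = 0.977 across the tested genes and 0.984 across the 100), against 0.892 with TTDV North Carolina replicate 2. TTDV Indiana replicate 1 had 52.7%, against 94.6% and 91.9% in the other 2 Indiana libraries. F39 Georgia had 31.1%, 40.5% and 35.1%, and F39 Arizona had 44.6%, 33.8% and 16.2%, against 21.6%, 28.4% and 12.2% in F39 at North Carolina. TTDV Arizona had 83.8%, 74.3% and 82.4%, below the 97.3% of both TTDV Georgia libraries.

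The margin fell off quickly from the first gene. MELO3C022772.2 had a margin of 3.36, with a mean of 14.70 at North Carolina and 11.34 in the second environment, Uvalde 2019. MELO3C019040.2 followed with 2.30, at 10.65 against 8.35 at Uvalde 2018. The gene at rank 50 had a margin of 1.15. The genes at ranks 99 and 100 had 0.92 each, and the next 2 genes, just outside, had 0.91 each, so the set has no natural edge.

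MELO3C022772.2 had 19433, 46375 and 26706 reads in F39 and 20758 and 28671 in TTDV at North Carolina, or 28389 ± 10780 (SD, n = 5). In the other 5 environments its highest value, 58822 reads, was in F39 Uvalde 2019 replicate 3, whose 2 fellow libraries had 3254 and 557. The next highest was 6158 reads in TTDV Uvalde 2019 replicate 2. Without that 1 Uvalde library the 5 North Carolina libraries would lie above all the others. The gene was lowest in F39 at Uvalde 2018, with 13.8, 22.3 and 7.52 reads, where TTDV had 480, 668 and 928. Reads of this gene thus spanned more than 3 orders of magnitude within F39.

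MELO3C019040.2 had 545, 2882 and 1657 reads in F39 and 1510 and 2115 in TTDV at North Carolina. Elsewhere its highest library was TTDV Uvalde 2018 replicate 3, with 1376 reads, and the next was TTDV Arizona replicate 1, with 829. F39 North Carolina replicate 1 lay within the range of the other environments, and the other 4 North Carolina libraries lay above it. Within each cultivar taken alone, the North Carolina libraries of this gene did not overlap with the rest, in F39 by a gap of only 545 against 544 reads.

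**Figure D1:**
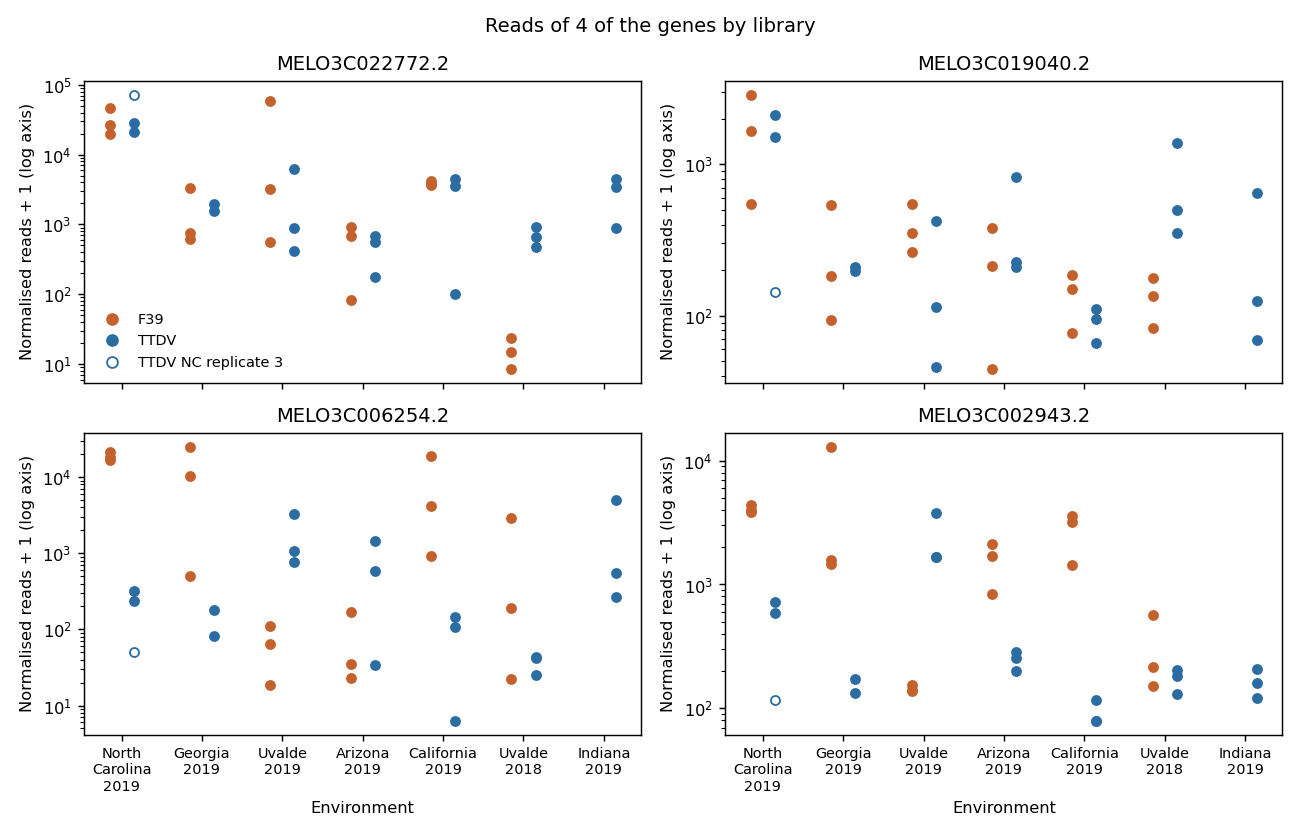
Normalised reads plus 1 on a log axis for 4 of the genes, 1 point per library, by environment, with F39 in orange, TTDV in blue and TTDV North Carolina replicate 3 as an open circle. MELO3C022772.2 and MELO3C019040.2 are high in both cultivars at North Carolina, while MELO3C006254.2 and MELO3C002943.2 are high there in F39 (16893 to 21209 and 3870 to 4375 reads) and lower in TTDV (232 to 315 and 586 to 722).

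Over the 100 genes, the North Carolina mean lay 1.05 to 4.86 units above the mean of the other 5 environments, with a median of 1.61. As a ratio of mean reads this was 1.51 to 10.5, with a median of 2.94, and 26 genes had a ratio over 4. Mean reads per gene at North Carolina ran from 47.3 to 89766 with a median of 1041. Only 6 of the 100 genes had fewer than 100 reads there, 51 had over 1000 and 11 over 10000. The genes took 2.30% to 3.83% of all reads in the 5 North Carolina libraries. In the other libraries of F39 and TTDV they took 0.331% to 4.36%, the highest in F39 Georgia replicate 3. All 100 passed the filter on low values, and all 100 also passed it in the libraries outside North Carolina alone. These values chose the genes and are a description with no test.

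The median of the 100 genes was 9.83, 10.21 and 9.92 in the F39 libraries of North Carolina and 9.59 and 9.78 in the 2 TTDV libraries. In the 29 libraries of the other environments it lay between 7.31 and 9.04. The highest of those was F39 Uvalde 2019 replicate 3, followed by F39 Georgia replicates 1 and 2 at 8.84 and 8.66 and TTDV Uvalde 2018 replicate 3 at 8.65. The lowest were the F39 libraries of Uvalde 2018, at 7.31, 7.41 and 7.63. The median of all genes with a usable signal was 7.34 to 7.76 in every library of this table. The deposited values were already normalised by size factor, so this closeness is not a separate check of scale.

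**Figure D2:**
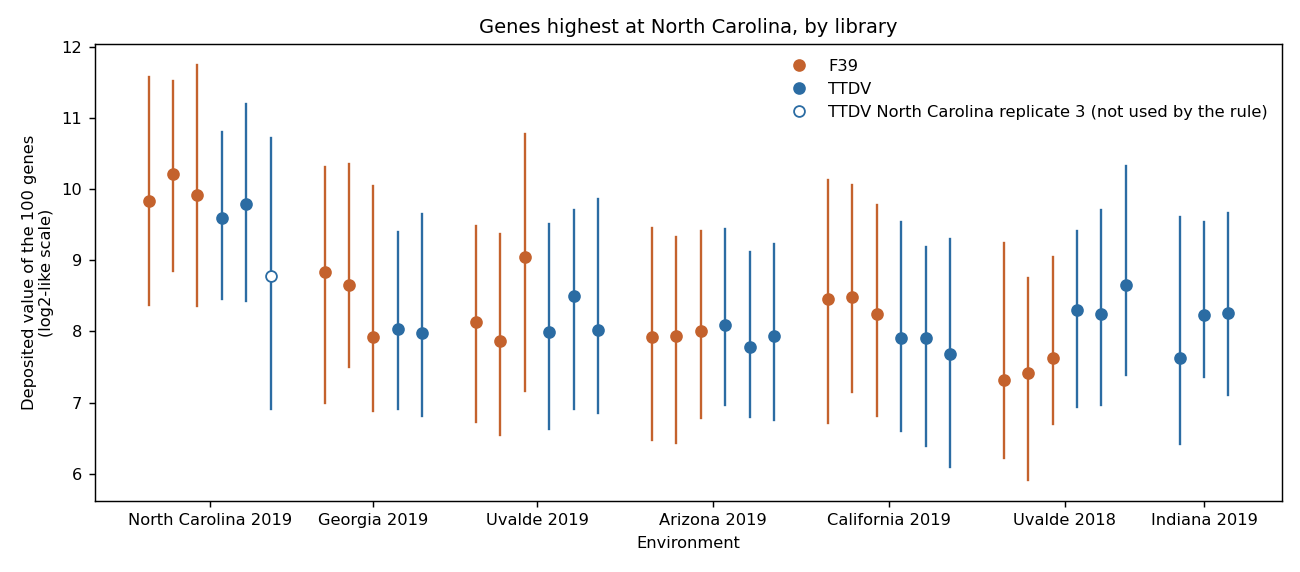
Median (point) and quartiles (line) of the deposited values of the 100 genes in each library of F39 (orange) and TTDV (blue), by environment, on the log2-like scale. The 5 North Carolina libraries used in the choice have medians of 9.59 to 10.21, TTDV North Carolina replicate 3 (open circle) has 8.78, and the Indiana libraries have 7.63 to 8.26.

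For 17 of the 100 genes all 5 North Carolina libraries lay above all 29 libraries of the other environments, and for 83 the ranges overlapped. Over all tested genes this held for 23 of 17213, or 0.134%, a share that the choice itself sets. MELO3C022772.2 and MELO3C019040.2 are both among the 83. The median gene had 3 of the 29 other libraries at or above its lowest North Carolina library, 52 genes had at most 3, and the highest number was 22. The libraries that most often reached that level were F39 Uvalde 2019 replicate 3 (36 genes), F39 Georgia replicate 2 (33 genes) and TTDV Uvalde 2018 replicate 3 (31 genes).

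Taken by cultivar, 36 genes had all 3 F39 libraries of North Carolina above all other F39 libraries, 59 had both TTDV libraries above all other TTDV libraries, and 26 met both conditions. Fewer libraries had to clear the rest in TTDV than in F39, so 36 and 59 cannot be compared directly. The counts in this paragraph come from the values that chose the genes, and their shares over all genes were not computed. By group mean, 84 genes were highest at North Carolina in both cultivars, 12 in F39 alone and 4 in TTDV alone. The single highest library of a gene was F39 North Carolina replicate 2 for 26 genes, replicate 1 for 15 and replicate 3 for 12. It was TTDV North Carolina replicate 2 for 11 genes and replicate 1 for 7. For the remaining 29 genes the highest library came from another environment, and for 11 of these it was F39 Uvalde 2019 replicate 3.

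The second-highest environment was Georgia for 41 genes, Uvalde 2019 for 26, California and Uvalde 2018 for 13 each and Arizona for 7. Among all 4099 genes highest at North Carolina the shares were 26.1% for Georgia, 31.3% for Uvalde 2019, 13.6% for California, 18.9% for Uvalde 2018 and 10.1% for Arizona. The lowest environment was Arizona for 34 genes, Uvalde 2018 for 27, California for 18, Uvalde 2019 for 17 and Georgia for 4. Georgia was thus second more often among these genes than among the 4099, and it was lowest for few of them. Shares of the lowest environment over the 4099 were not computed, and a gene second at Georgia cannot be lowest there. Over the 37 libraries the median correlation between pairs of these genes was 0.46, which the choice of genes raises. Over the libraries outside North Carolina this median was 0.17, and over the 24 Weslaco libraries 0.22. The spread of the correlations over pairs, and their level over all genes, were not computed. These correlations are across libraries that share groups and are given as a description.

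**Figure D3:**
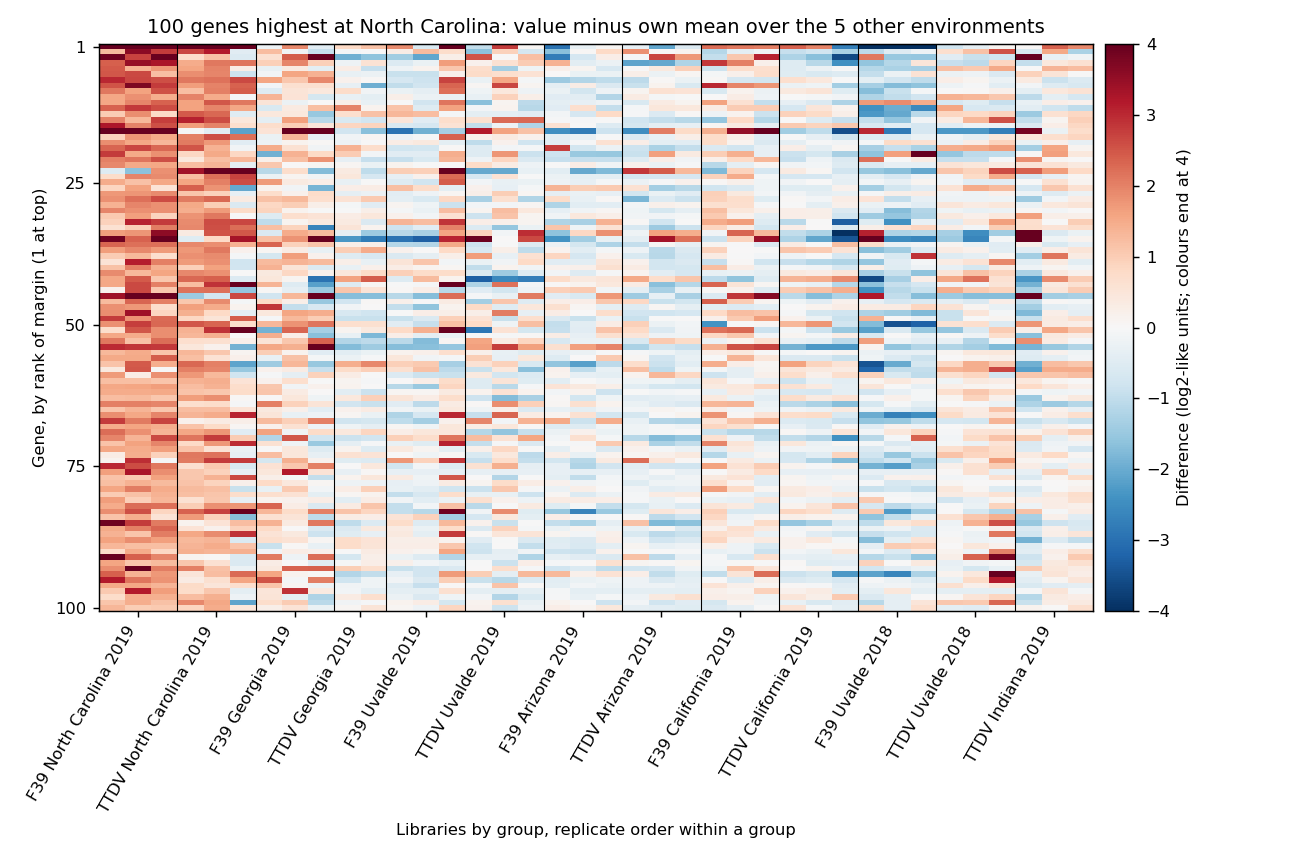
Each row is 1 of the 100 genes in order of margin and each column 1 library, grouped by cultivar and environment. Colour is the value minus the gene's own mean over the 5 other environments on the log2-like scale, ending at 4 in either direction. The North Carolina columns used in the choice are red in most rows, and the column of TTDV North Carolina replicate 3 is red in fewer. F39 Uvalde 2019 replicate 3 shares the red rows of TTDV North Carolina replicate 3, and the F39 columns of Uvalde 2018 are mostly blue.

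The genes outside the set with the most similar pattern over the 12 F39 and TTDV group means were MELO3C026894.2 and MELO3C020916.2, with r = 0.959 and 0.93 to the median of the 100. Their margins were much smaller, 0.45 at rank 613 and 0.34 at rank 939. MELO3C026894.2 had 2182, 2050 and 1888 reads in F39 and 1991 and 1873 in TTDV at North Carolina, and 927 in TTDV North Carolina replicate 3. In the other 5 environments it ran from 949 reads in F39 at Uvalde 2018 to 1893 in F39 at Georgia. MELO3C020916.2 had 2275, 2597 and 2286 reads in F39 and 2144 and 2168 in TTDV at North Carolina. Its highest value elsewhere, 3101 reads in TTDV Uvalde 2019 replicate 1, lay above all of these.

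TTDV North Carolina replicate 3 carries the North Carolina label but did not take part in the choice, so its values are a look at these genes in a library the rule did not use. On a scale where 0% is the mean of the other 5 environments and 100% the North Carolina mean, its median position over the 100 genes was 17.7%, with quartiles at -23.8% and 105%. At or below 0% lay 41 genes, between 0% and 50% lay 21, between 50% and 100% lay 12, and at or above 100% lay 26. The library was below all 5 other North Carolina libraries for 66 genes, against 30.5% of all tested genes, a comparison that the choice of genes high in those 5 favours. For 34 genes it was within or above their range. It was above the mean of every other environment for 46 genes and below all of them for 22. The shares of all tested genes were not computed for these counts. The Uvalde 2019 mean among them includes F39 Uvalde 2019 replicate 3. As given above, TTDV North Carolina replicate 3 resembled that library more than its own group. The part of that likeness in its low values was not tested.

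The genes at the extremes of this relative position differed in kind. MELO3C002608.2 had 4442 reads in TTDV North Carolina replicate 3, the highest of any library, against 735 and 1197 in the other TTDV libraries there and 22.3, 1.39 and 228 in F39. F39 Uvalde 2019 replicate 3 had 3154 reads of it, and the other 2 F39 libraries of Uvalde 2019 had 113 and 111. MELO3C030673.2 had 14649 reads in TTDV North Carolina replicate 3 and 19628 in F39 Uvalde 2019 replicate 3, and at most 3309 in every other library of F39 and TTDV. At the other end, MELO3C026192.2 had 112 reads, below every other North Carolina library (659 to 1486) and next to 147 in F39 Uvalde 2019 replicate 3. MELO3C010254.2 had 36.1 reads, the lowest of all 38 libraries, against 589 to 1050 in the other North Carolina libraries.

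Indiana was the only field outside the 6 environments in this table, and it was sampled in TTDV alone. Its libraries had medians of 7.63, 8.23 and 8.26 over the 100 genes, within the range of the TTDV libraries outside North Carolina (7.68 to 8.65) except for the first. For 81 genes all 3 Indiana libraries lay below both TTDV North Carolina libraries, which the choice of genes high in those libraries favours. The share over all genes was not computed. The Indiana mean differed from the mean of the 5 other TTDV groups by a median of 0.02 units, from -1.11 to 2.36, and was above it for 52 genes. It was above the highest TTDV group outside North Carolina for 18 genes and below the lowest for 8, against 9.7% and 10.9% of all tested genes. It reached the TTDV North Carolina mean for 6, a low count that the choice likewise favours.

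The genes that exceeded the highest other TTDV group outside North Carolina by most in Indiana were MELO3C030673.2 and MELO3C013129.2, by 0.72 and 0.71 units. MELO3C030673.2 had 490, 1282 and 933 reads there, against 445 and 548 at Georgia, the next TTDV group, and 1145 and 3309 in TTDV at North Carolina. MELO3C013129.2 had 5528 reads in Indiana replicate 1, 1.02 in replicate 2 and 1.43 in replicate 3, so its high mean came from 1 library. At North Carolina that gene had 590, 909 and 1826 reads in F39 and 0.582 and 8.98 in TTDV, with 337 in TTDV replicate 3.

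The choice averaged both cultivars, and the difference between them within an environment is another contrast of the same libraries. It is not independent of the choice, since a gene very high in 1 cultivar alone can enter the set, so the counts at North Carolina, and the tests that compare it with other environments, are given as a description. The means of the other environments also entered the choice, as values below North Carolina, so the counts there are a description as well. At North Carolina 4 of the 100 genes passed the threshold in limma, all lower in TTDV, against 1.96% of all 17213 tested genes (0.651% lower and 1.31% higher). After quantile normalization 5 passed, 1 higher and 4 lower. The median difference, TTDV minus F39, was -0.25 units over the 100 genes and 0.02 over all genes. It was below 0 for 62 of the 100 and above 0 for 38, and ran from -5.94 to 3.82. At an unadjusted p under 0.05 there were 20, against 2321 of all 17213 tested genes. TTDV had only 2 libraries here, and without either of them the count was 0. Without F39 replicate 1 or 2 it was 1, and with TTDV replicate 3 included it was 12.

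Of the 4, MELO3C006254.2 had the largest difference and the highest adjusted p, and it was highest at North Carolina by group mean in F39 and not in TTDV. It had 16893, 21209 and 18273 reads in F39 at North Carolina and 315 and 232 in TTDV, so the cultivars did not overlap. TTDV North Carolina replicate 3 had 49.8 reads. The difference was -5.94 ± 1.50 units (SE, limma adjusted p = 0.0318). Leaving out any of the 5 libraries lost that call (adjusted p from 0.0692 to 0.293). The gene was not steady elsewhere in F39, with 495, 25100 and 10310 reads at Georgia, 928, 4132 and 18932 at California, and 34.5, 21.9 and 169 at Arizona. Its high North Carolina mean thus came from F39, and TTDV held more reads of it at Uvalde 2019 as labelled (3247, 1068 and 770).

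MELO3C002943.2, likewise highest at North Carolina in F39 alone, had 4375, 3994 and 3870 reads in F39 and 722 and 586 in TTDV there. The difference was -2.58 ± 0.59 units (SE, limma adjusted p = 0.0158). The call was lost without F39 replicate 1 (0.0676) and without TTDV replicate 1 or 2 (0.126 and 0.226). Its highest library of the 37 was F39 Georgia replicate 3, with 12950 reads. TTDV libraries had 78.4 to 282 reads at Georgia, Arizona, California, Uvalde 2018 and Indiana. North Carolina was thus the highest labelled environment for TTDV apart from Uvalde 2019, where the libraries labelled TTDV had 1673, 3769 and 1677. MELO3C024214.2 and MELO3C035177.2 also passed, named after their values were seen to complete the count, with differences of -1.74 and -1.59.

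Over Georgia, Arizona, California and Uvalde 2018, weighted equally, the cultivars differed for 24 of the 100 genes, 13 higher and 11 lower in TTDV, against 18.1% of all genes tested (9.54% higher and 8.57% lower). MELO3C018700.2 was higher in TTDV by 2.26 ± 0.44 units (SE, limma adjusted p = 0.000586). It had 3185, 3422 and 4602 reads in TTDV at California against 565, 374 and 833 in F39, without overlap. MELO3C002608.2 was higher by 1.91 ± 0.48 (adjusted p = 0.00613). Many of its F39 libraries were near 0, such as 25.4, 0 and 0.691 reads at Arizona, where TTDV had 490, 367 and 147. MELO3C002943.2 differed by -2.86 ± 0.27 (adjusted p = 1.42e-08), and MELO3C006254.2 differed by -2.68 ± 0.69 (adjusted p = 0.00694). The last lost its call with voom on recovered reads (0.0527) and without F39 Georgia replicates 2 and 3 (0.0692). With Uvalde 2019 in the contrast it, MELO3C018700.2 and MELO3C002608.2 all missed the threshold (0.163, 0.0522 and 0.272).

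Of these 24 genes, 23 had the same sign at North Carolina and 20 had the opposite sign at Uvalde 2019 as labelled. The shares of such signs among all genes that passed were not computed, so these counts are not particular to the set. With Uvalde 2019 in the contrast as labelled, 8 genes passed. The test of whether the cultivar difference at North Carolina departed from that in the other 4 environments passed for 0 of the 100 genes in limma, against 0.0523% of all genes (9 genes). The lowest adjusted p among the 100 was 0.190, and 9 genes had an unadjusted p under 0.05, against 1215 of all 17213 tested genes. Voom on recovered reads gave 0 genes past the threshold, and the fit with TTDV North Carolina replicate 3 included gave 2. In these libraries a cultivar difference particular to North Carolina was therefore not detected for any of them, which does not show that there was none.

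In single environments the cultivar difference of these genes varied. These tests were added after values had been seen. At Uvalde 2018, 32 genes passed, 30 higher and 2 lower in TTDV, against 25.1% of all genes (12.7% higher and 12.4% lower). The median difference was 0.64 units over the 100 genes and 0.04 over all genes. At California 14 passed, 3 higher and 11 lower, against 20.8% of all genes (11.8% higher and 8.95% lower). At Georgia 5 passed, all lower in TTDV, against 3.38% of all genes (2.10% higher and 1.28% lower). At Arizona 1 was higher and 1 lower, against 1.64% (0.935% and 0.703%). At Uvalde 2019 as labelled 4 were higher and 7 lower, against 6.53% (2.97% and 3.56%). Single libraries moved these small counts. At California 9 genes passed without F39 replicate 1, 8 without TTDV replicate 1 or 2 and 7 without F39 replicate 2 or TTDV replicate 3. At Georgia 8 passed without F39 replicate 2 or 3, 2 without TTDV replicate 1 and 1 without TTDV replicate 2. At Arizona 0 passed without F39 replicate 3 or TTDV replicate 3, and 1 without F39 replicate 1 or 2 or TTDV replicate 2, and at Uvalde 2019 7 passed without TTDV replicate 1 or 3. Whether the cultivar difference differed among North Carolina, Georgia, Arizona, California and Uvalde 2018 was tested in 1 F test per gene, which 26 of the 100 passed, against 19.2% of all genes. Without F39 Uvalde 2019 replicate 3, which enters that fit only through the shared spread, 43 passed. The share of all genes in that fit is not given here, so 43 cannot be set against 19.2%.

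**Figure D4:**
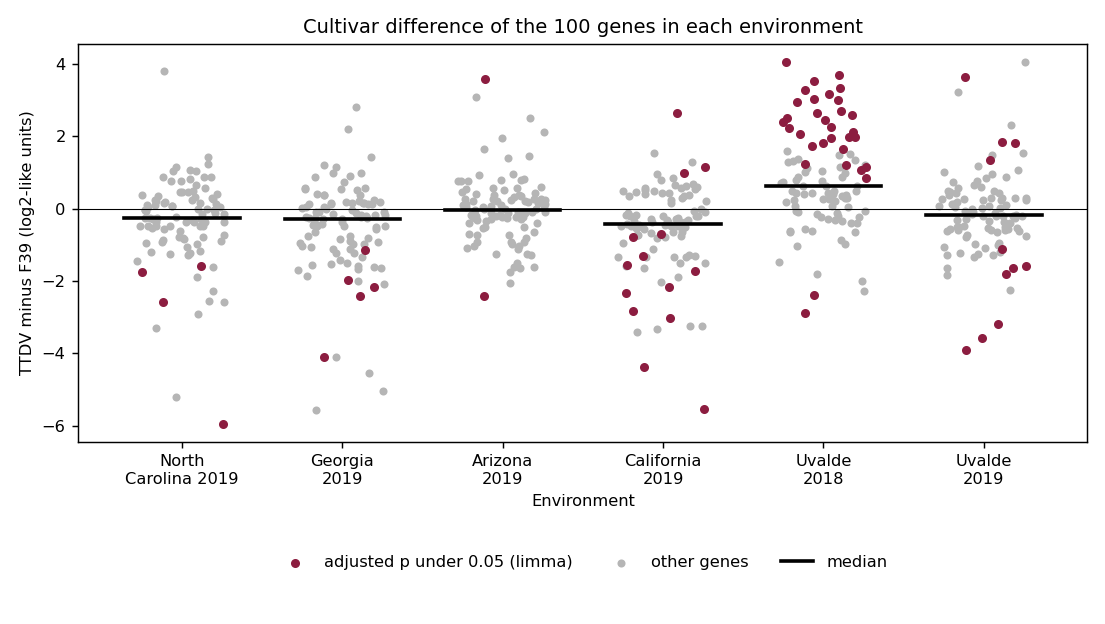
TTDV minus F39 on the log2-like scale for each of the 100 genes in each environment, 1 point per gene, with genes past the limma threshold in dark red and the median as a bar. Uvalde 2018 is the environment with most red points above 0 (30 genes, median 0.64), while at California most lie below 0 (11 of 14). Uvalde 2019 is shown as labelled.

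At Uvalde 2018 MELO3C022772.2 was higher in TTDV by 4.06 ± 1.22 units (SE, limma adjusted p = 0.0161), from 13.8, 22.3 and 7.52 reads in F39 to 480, 668 and 928 in TTDV. That call was lost without TTDV replicate 3 (0.0553) and with voom (0.146). MELO3C015630.2 was higher by 3.69 ± 0.84 (adjusted p = 0.00215), from 73.6, 44.5 and 166 reads to 486, 593 and 10704. The groups did not overlap, and the last library alone was far above the rest. MELO3C017419.2 was lower in TTDV by a difference of -2.39 ± 0.55 (adjusted p = 0.00224), with 341, 393 and 283 reads in F39 and 40.5, 50.1 and 29.5 in TTDV. MELO3C006914.2 differed by -2.87 ± 1.03 (adjusted p = 0.0403), with 0.767, 178 and 2081 reads in F39 and 1.23, 6.59 and 6.95 in TTDV. Its groups overlapped, and 7 of the 13 alternatives lost the call (up to 0.376).

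The 2 genes with the smallest p for a cultivar difference that varied among environments were MELO3C024214.2 (limma adjusted p = 5.91e-05) and MELO3C012583.2 (0.000499). MELO3C024214.2 had 19513, 14593 and 10311 reads in F39 and 3679 and 4949 in TTDV at North Carolina. At Uvalde 2018 the order turned, with 607, 489 and 940 reads in F39 and 2746, 3616 and 4690 in TTDV. At Arizona the cultivars overlapped, with 1016 to 1888 reads in F39 and 1338 to 1774 in TTDV. MELO3C012583.2 had 446, 612 and 734 reads in F39 and 1263, 1681 and 1340 in TTDV at Uvalde 2018. At Georgia it had 1723, 992 and 785 reads in F39 and 569 and 411 in TTDV, so again the order turned without overlap. At North Carolina it had 2230, 2259 and 2301 reads in F39 and 1778 and 1700 in TTDV.

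At California MELO3C011364.2 was higher in TTDV by 1.17 ± 0.32 units (limma adjusted p = 0.0104), with 2289, 1939 and 3223 reads against 1181, 995 and 1017 in F39, a call lost without TTDV replicate 3 (0.0720). MELO3C018700.2 was higher there by 2.64 ± 0.86 (adjusted p = 0.0289), a call that 5 of 13 alternatives lost. MELO3C006254.2 differed by -5.54 ± 1.34 (adjusted p = 0.00411), with 105, 143 and 5.3 reads in TTDV against 928, 4132 and 18932, and MELO3C002943.2 by -4.38 ± 0.53 (adjusted p = 3.72e-06). At Uvalde 2019 as labelled MELO3C002943.2 went the other way, higher in TTDV by 3.65 ± 0.53 (adjusted p = 7.13e-05). Its reads there were 136, 141 and 154 in F39 and 1673, 3769 and 1677 in TTDV. At Georgia it differed by -4.09 ± 0.59 (adjusted p = 0.000160) and at Arizona by -2.42 ± 0.53 (adjusted p = 0.0120). The Arizona call was lost in 3 of 13 alternatives, without F39 replicate 2 (0.0624) or 3 (0.0963) and without TTDV replicate 3 (0.0550).

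MELO3C002608.2 and MELO3C030673.2, the genes with the highest relative position in TTDV North Carolina replicate 3, were lower in the libraries labelled TTDV at Uvalde 2019. Their differences there were -3.91 ± 0.94 and -3.56 ± 1.09 units (SE, limma adjusted p = 0.0113 and 0.0455). F39 Uvalde 2019 replicate 3 was the highest library, with 3154 and 19628 reads. Without it the differences were -2.42 and -2.11 units and missed the threshold (adjusted p = 0.0936 and 0.265), while the other 2 F39 libraries still lay above all 3 TTDV libraries for both genes. At Arizona MELO3C002608.2 was higher in TTDV by 3.58 ± 0.94 (adjusted p = 0.0453), a call that 9 of 13 alternatives lost. MELO3C018139.2 was lower in TTDV at Georgia by a difference of -2.42 ± 0.63 (adjusted p = 0.0289), with 60.5 and 67.4 reads against 263, 403 and 1023 in F39, and higher at Uvalde 2019 as labelled by 1.84 ± 0.56 (adjusted p = 0.0463). The first of these calls was lost in 5 of 12 alternatives and the second in 7 of 13.

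The 8 Weslaco cultivars were not used in the choice at all, and 99 of the 100 genes passed the filter there. The other, MELO3C029195.2, had at most 12.2 reads in any Weslaco library. In 89 genes all 24 libraries had a read. Differences among the 8 cultivars passed the threshold for 75 of the 99 genes, against 58% of all 17131 genes tested. With the stricter filter on low values it was 71 of 90. The share of all genes with that filter is not given here, so 71 of 90 cannot be set against 58%. The range of the 8 cultivar means was 0.44 to 11.77 units over the 100 genes with a median of 2.24, against a median of 1.15 over all genes.

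The median of the 100 genes at Weslaco was 8.93 to 9.12 in the CRUSER libraries, 8.63 to 8.80 in Infinite Gold, 8.36 to 8.53 in PRIMO, 8.20 to 8.60 in TH-5 and 7.89 to 8.12 in HD150. It was 7.24 to 7.42 in HD252, below all other Weslaco libraries. TH-6 had 7.93, 8.14 and 9.16 and OC164 had 8.53, 7.49 and 7.78, so in each of these 1 library lay well above the other 2. The median over all genes was 7.59 to 7.77 in these 24 libraries. CRUSER was the cultivar with the highest mean for 37 genes (15.9% of all tested genes), Infinite Gold for 16 (7.5%) and PRIMO for 13 (18.6%). HD252 had the lowest mean for 44 genes (17.3% of all tested genes).

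**Figure D5:**
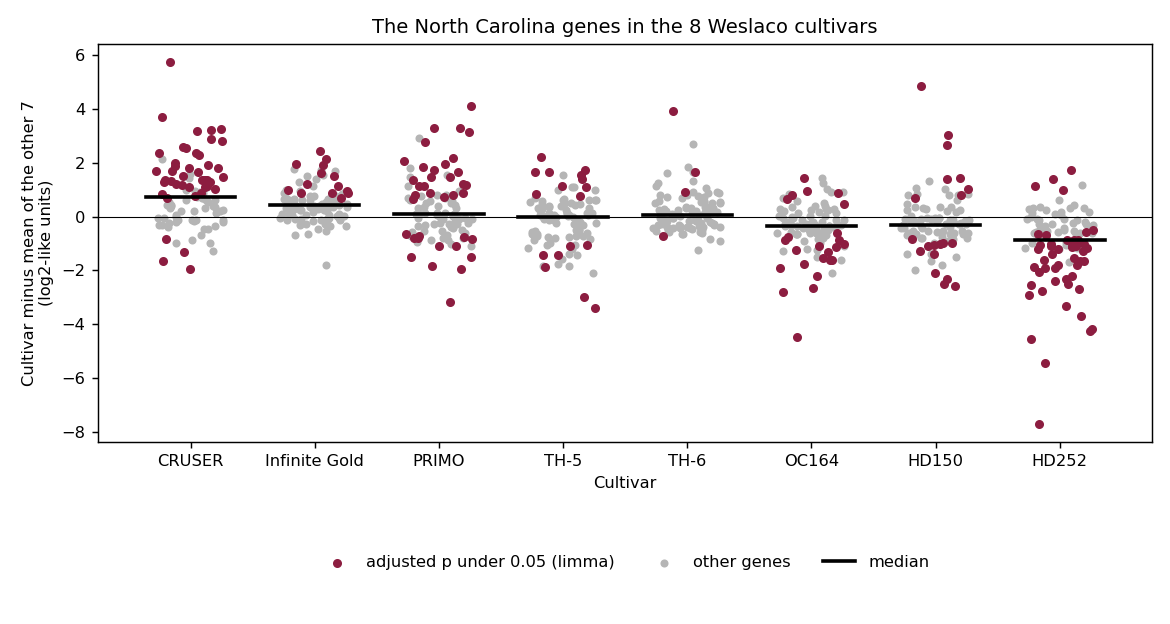
Difference of each Weslaco cultivar from the mean of the other 7 on the log2-like scale, 1 point per gene of the 99 that passed the filter, with genes past the limma threshold in dark red and the median as a bar. CRUSER has the highest median, 0.71, and HD252 the lowest, -0.87.

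Set against the mean of the other 7 cultivars in limma, CRUSER had 44 of the 99 genes past the threshold, against 27.6% of all genes. Of these 40 were higher and 4 lower, against 13.2% and 14.4%. The median difference was 0.71 units, and -0.02 over all genes. HD252 had 48 (28.2% of all genes), 4 higher and 44 lower, against 15.2% and 12.9%, with a median of -0.87. Infinite Gold had 14 (4.98% of all genes), all of them higher, against 2.60% higher and 2.38% lower, with a median of 0.43. These 8 comparisons share their libraries and are not independent. Depth moved with the outer 2 cultivars. CRUSER had the shallowest libraries, with 4041908, 7806433 and 7086348 reads, and HD252 had 18605550, 21290476 and 12564637. The part of depth in these counts was not tested, and the stricter filter gave 39 higher and 5 lower in CRUSER and 4 and 42 in HD252. Shares of all genes with the stricter filter are not given here. Without CRUSER replicate 1 the CRUSER count fell from 44 to 27, and without HD252 replicate 1 or 2 the HD252 count fell from 48 to 29 or 27. Without single Infinite Gold libraries its count of 14 was 3, 3 and 7.

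The largest range of cultivar means belonged to MELO3C014437.2 (limma adjusted p = 0.000588 for any difference). It had 235881, 135070 and 198945 reads in CRUSER and 12.7, 33.5 and 25.5 in HD252, below all other Weslaco libraries. OC164 had 1221, 280 and 163727 reads, of which the last lay within the CRUSER range. It differed by 5.75 ± 1.24 units in CRUSER (adjusted p = 0.00304) and by -7.70 ± 1.24 in HD252 (adjusted p = 0.000263). At North Carolina this gene had 149750, 52267 and 173507 reads in F39 and 7210 and 17704 in TTDV. Its highest library of all was F39 Georgia replicate 3 with 663128 reads, and TTDV Indiana replicate 1 had 540893 against 8922 and 11201 in the other Indiana libraries. Its margin at North Carolina, 1.23, was thus small against its spread within groups, such as 23471 to 663128 reads in F39 at Georgia.

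MELO3C002943.2, the gene lower in TTDV, also had the next largest range at Weslaco (adjusted p = 3.33e-11 in limma). HD150 had 19504, 13779 and 19868 reads, TH-6 had 9571, 13957 and 7312, OC164 had 31.1, 20.2 and 40.4, and HD252 had 6.03, 6.2 and 9.8. None of these 4 groups overlapped with another except HD150 with TH-6. Against the mean of the other 7 it was higher in HD150 by 4.86 ± 0.33 units and in TH-6 by 3.92 ± 0.33 (adjusted p = 7.69e-09 and 3.14e-07). It differed by -5.45 ± 0.33 in HD252 and by -4.49 ± 0.33 in OC164 (adjusted p = 1.14e-09 and 2.01e-08). Each of these calls held in all 29 alternatives.

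Other genes also separated CRUSER. MELO3C018967.2 had 4006, 1498 and 2783 reads there, above every other Weslaco library (at most 1063), and was higher by 3.69 ± 0.54 units (limma adjusted p = 0.000158). It was lower in OC164, with 39.3, 6.72 and 24.5 reads and a difference of -2.80 ± 0.54 (adjusted p = 0.00220, and 0.0567 with voom). Some genes ran against the majority. MELO3C010254.2 had 41.8, 174 and 96.6 reads in CRUSER, overlapping with PRIMO, and differed by -1.95 ± 0.34 (adjusted p = 0.000537). MELO3C007799.2 had 0, 11 and 4.49 reads and differed by -1.65 ± 0.52 (adjusted p = 0.0249), a call lost without CRUSER replicate 1 or 3 and with voom.

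In HD252 the genes that ran against the majority were MELO3C018700.2, with 4587, 2714 and 1863 reads and a difference of 1.73 ± 0.58 units (limma adjusted p = 0.0322), and MELO3C009477.2, with 1015, 1072 and 1516 reads and 1.38 ± 0.44 (adjusted p = 0.0253). Leaving out HD252 replicate 1 or 2 lost both calls (adjusted p from 0.0699 to 0.190). MELO3C018700.2 was lowest in PRIMO, with 56.8, 191 and 123 reads and a difference of -3.19 ± 0.58 (adjusted p = 0.000607). The first-ranked gene, MELO3C022772.2, had 20.1, 11.2 and 68.6 reads in HD252 and 2356 to 4444 in CRUSER, and the highest Weslaco library was TH-6 replicate 3 with 9494. MELO3C019040.2 had 0, 8.06 and 36.3 reads in HD252 and 683, 690 and 408 in Infinite Gold.

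In Infinite Gold, MELO3C023540.2 had 3267, 4859 and 1633 reads and was higher by 2.43 ± 0.63 units (limma adjusted p = 0.0308), a call lost without any 1 of its libraries (0.0576 to 0.207). MELO3C026402.2 had 8700, 7840 and 4899 reads and was higher by 2.13 ± 0.42 (adjusted p = 0.00520), a call lost without replicate 1 or 2 (0.0561 and 0.0543). PRIMO reached 9250 and 9092 reads of it in 2 libraries and 1152 in the third.

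The other 5 cultivars had calls in both directions. PRIMO had 37 genes past the threshold (29.2% of all genes), 24 higher and 13 lower, against 15.6% and 13.7% of all genes. OC164 had 24 (15.8%), 6 higher and 18 lower, against 8.38% and 7.39%. HD150 had 20 (11.9%), 8 higher and 12 lower, against 6.23% and 5.64%. TH-5 had 17 (13.1%), 10 higher and 7 lower, against 7.03% and 6.05%, and TH-6 had 4 (2.58%), 3 higher and 1 lower, against 1.38% and 1.20%. Without single libraries the count of 20 in HD150 was 11, 9 and 12, that of 17 in TH-5 was 11, 3 and 5, that of 37 in PRIMO was 22 without replicate 1 or 2, and that of 24 in OC164 was 12 without replicate 2. In PRIMO, MELO3C006254.2 had 4646, 2845 and 20727 reads and was higher by 4.11 ± 0.91 units (limma adjusted p = 0.00303). In TH-5 the same gene had 40.3, 63.2 and 16.5 reads and differed by -3.41 ± 0.91 (adjusted p = 0.0206), a call that 4 of 29 alternatives lost. MELO3C013129.2, with at most 3.42 reads in HD150, TH-5 and HD252, had 836, 166 and 399 reads in PRIMO and was higher by 3.30 ± 0.64 (adjusted p = 0.000994).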

How the data were processed

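RNA sequencing libraries of melon fruit were made with an mRNA kit, per the labels' protocols. The authors deposited 2 tables of log2-like, variance-stabilised values, 1 column per library (38 and 24) and 1 row per gene ID (29980). Per the submitters' processing notes, DESeq and DESeq2 were used, without a version. Aligner, counter, build and gene models: not given in the sources used here. A count of 0 gives the lowest value, 4.182278, and inverting the transform returned reads within 0.05 of whole numbers for 100% of values under 200 reads. None (0) of the IDs matched the RefSeq gene table of assembly USDA_Cmelo_AY_1.0.

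Genes were tested where 3 or more libraries exceeded the lowest value by 1 unit (9.08 reads), 17213 and 17131 genes. limma 3.58.1 in R 4.3.3 was fitted with 1 coefficient per group, empirical Bayes with trend and robust settings, and Benjamini-Hochberg adjusted p under 0.05 as the threshold over all tested genes. TTDV North Carolina replicate 3 was left out of the fit. The 2 tables were tested apart. Differences are on the deposited scale, ± SE, and SD over libraries is given for reads.

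The genes, the comparisons and the alternatives were chosen with earlier results of these data known. The cultivar tests in single environments, the cultivar check over 74 genes and the fit without F39 Uvalde 2019 replicate 3 were added after values of these genes were seen. Named genes were the 2 with the largest margin, per comparison at most 2 higher and 2 lower past the threshold by size, the 2 highest and lowest by relative position in the left-out library, the 2 furthest above the other TTDV groups in Indiana and the 2 most similar outside the set. On simulated data the fit recovered 72% of 4-fold and 92% of 8-fold changes at North Carolina (16550 genes), 68% and 87% for the difference from the other environments, 96% and 100% over 4 environments (16542 genes), and 90% and 96% in CRUSER (16598 genes). Of the calls in these simulations 5.2%, 7.2%, 3.9% and 12.3% were false, in that order, above the nominal 5% in all but the third. Intervals from counting were not used, since the spread between libraries was larger. Alternatives were no filter, a stricter one (3 units, 111 reads), moderation with neither a trend nor robust settings, quantile normalization, voom on recovered reads, the left-out library included, fits without Uvalde 2019 or F39 Georgia replicates 2 and 3, the compared groups alone, and each library left out in turn.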

Additional observations from a re-analysis of the deposited data

Results flagged for a closer look

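The cultivar difference varied among North Carolina, Georgia, Arizona, California and Uvalde 2018 for 26 of the 100 genes, against 19.2% of all genes, as tested by an interaction F test in limma over all genes. It is given for a closer look because the same contrast gave different differences in different environments. The libraries of all these environments, North Carolina among them, also entered the choice of the genes, so the count is a description. Whether it departs from the share of all genes was not tested. At Uvalde 2018 the called genes were mostly higher in TTDV, 30 of 32, where 12.7% of all genes were higher and 12.4% lower. At California they were mostly lower, 11 of 14, where 11.8% of all genes were higher and 8.95% lower. In MELO3C024214.2 the cultivars did not overlap at North Carolina or at Uvalde 2018, in opposite directions, and its call held in all 41 alternatives.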

How the results depend on the processing

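No difference of a named gene changed sign in any alternative of the comparison it was named for. The counts and the F tests could not be checked for a reversal in this way. The 100 genes depend on the scale and on the environments and cultivars entered: 57 were kept on log2 of normalised reads plus 1, 63 without the Uvalde 2019 environment, 49 with F39 alone and 38 with TTDV alone. With TTDV North Carolina replicate 3 included 68 were kept, after quantile normalization 93, without F39 Uvalde 2019 replicate 3 85, and without single North Carolina libraries 81 to 89. The count of 4 at North Carolina was 12 with the left-out library (1 higher, 11 lower), 13 with the compared groups alone, and 7 each without F39 Georgia replicates 2 and 3 and without F39 Uvalde 2019 replicate 3. The count of 24 over 4 environments was 8 with Uvalde 2019 in the contrast, and the count of 0 for their difference was 2 with the left-out library. At Georgia 3 passed with voom and 10 without F39 Georgia replicates 2 and 3, at Uvalde 2019 6 passed with voom, and at Arizona 1 passed with the left-out library, with no filter and with voom. The causes were not tested.

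Leaving out single libraries gave 0 to 4 genes at North Carolina, 17 to 26 over 4 environments, 0 to 0 for their difference, 20 to 43 for differences among environments, and 1 to 8 at Georgia, 7 to 13 at Uvalde 2019, 0 to 2 at Arizona, 7 to 14 at California and 26 to 36 at Uvalde 2018. At Weslaco it gave 72 to 79 genes for any difference and 174 to 225 calls over the 8 cultivars (208 in all), namely 27 to 52 for CRUSER, 9 to 26 for HD150, 27 to 51 for HD252, 3 to 19 for Infinite Gold, 12 to 27 for OC164, 22 to 42 for PRIMO, 3 to 25 for TH-5 and 3 to 5 for TH-6. Where a group was left with 1 library, its spread was borrowed from the other groups. No paired analysis was possible because the columns carry no replicate numbers that tie libraries of different groups together.

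Depth limits weakly read genes, whose differences the scale compresses. With 2 or 3 libraries a group the simulated 4-fold changes at North Carolina were missed in part. Those changes were placed in better-read genes only, so recovery in weakly read genes was not measured.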
